A study of Homo sapiens with 2 samples.

Results

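NeuroD1 binding was examined at 10 neuronal microtubule and growth cone genes, which were TUBB3, STMN1, STMN2, STMN3, STMN4, MAP2, MAPT, MAP1B, DCX and GAP43. A peak was assigned to a gene when it overlapped the RefSeq GRCh38.p14 gene body or lay up to 20 kb from either end. By this rule 4 of the 10 genes had a peak (STMN3, MAP2, MAP1B and GAP43) and 6 had none (TUBB3, STMN1, STMN2, STMN4, MAPT and DCX), against 29.7% of all 20037 protein-coding genes (17.6% of all RefSeq genes). The 4 genes took 6 of the 6183 peaks. The data were 1 NeuroD1 ChIP-seq library of IMR-32, an established human neuroblastoma cell line, labelled wild type. An input library of the same cells was not analysed here. The label of the ChIP library gives an antibody against NeuroD1. The study's description of the ChIP-seq instead gives one against H3K27Ac, a histone mark of active promoters and enhancers. Its antibody list holds both. Its data statement names the ChIP-seq as NeuroD1 and gives H3K27Ac as a separate data set from another assay, CUT&Tag. The peak list was used as labelled.

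NeuroD1 is a basic helix-loop-helix transcription factor of developing neurons. It binds E-boxes, the sequence CANNTG, together with E proteins. Neurons extend axons and dendrites on microtubules, polymers of alpha- and beta-tubulin that stathmins take apart and microtubule-associated proteins bundle and stabilise. The growth cone, the motile tip of a growing neurite, is where these microtubules meet actin.

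In the whole list, the fold enrichment of a peak, the ChIP signal at its summit over the local background, had a median of 6.79, with quartiles at 5.79 and 8.68 and a range of 1.58 to 70.0. In ranks by fold or by q, tied peaks share the best rank of their group. The summit reads, solved from the deposited values, had a median of 17 and ran from 8 to 272. The total number of reads in the library is unknown. With 1 library there was no replicate, so no difference below carries a test, and the 95% intervals cover counting error only.

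Promoter sequence was read for 7 of the 10 genes, as windows of 300 bases from 250 before to 50 after each listed start site, from RefSeq GRCh38.p14. The windows below belong to the genes with a peak and are written 5′ to 3′ on the strand of the gene. Capitals mark each E-box, searched as CANNTG, which reads alike on both strands.
STMN3 (chr20:63652717-63653016, minus strand): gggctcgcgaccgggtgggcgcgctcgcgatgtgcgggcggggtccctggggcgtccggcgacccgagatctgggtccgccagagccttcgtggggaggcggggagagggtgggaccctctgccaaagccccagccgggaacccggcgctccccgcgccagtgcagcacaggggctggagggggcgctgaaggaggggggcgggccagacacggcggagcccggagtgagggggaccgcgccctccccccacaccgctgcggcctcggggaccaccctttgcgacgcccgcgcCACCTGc
MAP2 (chr2:209579082-209579381, plus strand): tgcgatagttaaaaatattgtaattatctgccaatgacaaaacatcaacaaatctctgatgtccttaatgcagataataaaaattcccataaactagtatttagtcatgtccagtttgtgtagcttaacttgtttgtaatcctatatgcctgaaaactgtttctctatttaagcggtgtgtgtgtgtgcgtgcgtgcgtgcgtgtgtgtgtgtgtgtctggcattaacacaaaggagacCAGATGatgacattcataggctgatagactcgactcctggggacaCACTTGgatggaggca
MAP1B, first start (chr5:72107225-72107524, plus strand): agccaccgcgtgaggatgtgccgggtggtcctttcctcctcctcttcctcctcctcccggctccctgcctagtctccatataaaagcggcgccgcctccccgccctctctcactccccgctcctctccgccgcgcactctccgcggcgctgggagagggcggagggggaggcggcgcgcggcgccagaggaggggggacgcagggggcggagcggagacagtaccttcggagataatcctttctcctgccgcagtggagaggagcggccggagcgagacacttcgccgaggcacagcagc
MAP1B, second start (chr5:72179537-72179836, plus strand): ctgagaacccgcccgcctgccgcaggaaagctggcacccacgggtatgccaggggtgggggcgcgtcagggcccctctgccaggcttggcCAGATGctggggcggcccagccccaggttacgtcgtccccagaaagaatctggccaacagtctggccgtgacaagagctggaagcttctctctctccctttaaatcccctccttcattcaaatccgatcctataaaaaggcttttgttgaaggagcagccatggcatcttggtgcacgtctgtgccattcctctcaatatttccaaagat
GAP43 (chr3:115623260-115623559, plus strand): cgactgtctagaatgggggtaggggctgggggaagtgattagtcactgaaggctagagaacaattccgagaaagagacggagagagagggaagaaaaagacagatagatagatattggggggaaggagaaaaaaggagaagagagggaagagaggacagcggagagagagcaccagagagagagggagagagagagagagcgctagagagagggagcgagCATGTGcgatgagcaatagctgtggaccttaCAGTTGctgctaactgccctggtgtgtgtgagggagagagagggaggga

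No peak lay over any of the 15 promoter windows of these 7 genes, a count that rests on the listed start sites. Over all protein-coding genes of the promoter table, 13.7% of 15843 had a peak over a window. MAP2 carried the E-box CAGATG, the form most often tied to NeuroD1, at 11 bp upstream of the start site shown, which is 1 of 3 listed for this gene. A window that overlaps it held CATTTG and the same CACTTG as the window shown, and the remaining MAP2 window held no E-box. MAP1B carried the same form 160 bp upstream of its second start site and had no E-box in the first window. STMN3 had a single E-box, CACCTG, 43 bp downstream of its start. GAP43 had CATGTG 30 bp upstream and CAGTTG 1 bp downstream. Each of the 4 genes with a peak thus had an E-box in at least 1 promoter window, and none of these E-boxes lay under a peak. The share of all genes with an E-box in at least 1 window was not computed. An E-box is common, occurring in 68.7% of all 34943 windows, and a gene with several windows has more room for one. A match in these letters is a description and not a binding site.

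Among the windows of genes without a peak, DCX had CAGATG 1 bp upstream of a start site. STMN1 had CACGTG, the form known for MYC proteins, at 94 bp and again at 50 bp upstream of 1 of its 3 starts. TUBB3 had no E-box. CANNTG occurred in 9 of the 15 windows, in 6 of the 7 genes, and in 68.7% of all 34943 windows. CAGATG, searched on both strands and so also as CATCTG, occurred in 3 of the 15, against 14.7% of all windows. CAGCTG occurred in 0 of the 15, against 17.9%. STMN2, STMN4 and MAPT were not in the promoter table.

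TUBB3 encodes the neuronal beta-tubulin used as a marker of young neurons. Its body at chr16:89921925-89936097 spans 14.2 kb. The closest peak was 141370 bp away, at chr16:90077467-90077612 and 136 bp from PRDM7, with a fold enrichment of 6.27 and 12 reads. TUBB3 was therefore far outside the 20 kb limit.

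The stathmins bind tubulin dimers and promote microtubule disassembly, and 1 of the 4 had a peak. STMN3, the neuronal stathmin also called SCLIP, had 2 peaks. Its body lies at chr20:63639712-63653424 on the minus strand. The first peak, chr20:63653664-63653809, began 240 bp past the upstream end of the gene, and its summit was 989 bp upstream of the listed start. It had a fold enrichment of 6.75 (95% interval 3.82 to 11.2), 13 reads (6.92 to 22.2) and a −log10 q of 6.22. This was the peak closest to the start site of any of the 10 genes, and its fold ranked 3173 of 6183, near the middle of the list.

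The second STMN3 peak, chr20:63658188-63658389, lay 4764 bp from STMN3. It had a fold enrichment of 6.27 (3.48 to 10.6), 12 reads (6.20 to 21.0) and a −log10 q of 5.21. The summit lay 20 bp upstream of a start site of RTEL1, a helicase gene of telomere maintenance on the plus strand, so by position it was an RTEL1 promoter peak that the distance rule also gave to STMN3. Without it STMN3 kept 1 peak. The RTEL1 promoter window under this peak, chr20:63658062-63658361 on the plus strand, held no E-box. It is shown because it is the only window of the promoter table under any of the 6 peaks.
RTEL1 (chr20:63658062-63658361, plus strand): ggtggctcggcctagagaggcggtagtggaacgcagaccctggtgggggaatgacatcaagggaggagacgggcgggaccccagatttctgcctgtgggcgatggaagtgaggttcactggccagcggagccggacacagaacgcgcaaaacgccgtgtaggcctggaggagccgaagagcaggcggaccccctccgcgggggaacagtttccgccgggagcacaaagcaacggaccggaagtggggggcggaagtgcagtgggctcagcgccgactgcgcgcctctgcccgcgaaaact

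The other 3 stathmin genes had no peak within 20 kb. STMN1, the widely expressed stathmin, had its closest peak 46307 bp away at chr1:25953187-25953350, with a fold enrichment of 3.44, 13 reads and a −log10 q of 1.59. That peak ranked 6063 of 6183 by fold and lay 6417 bp from PAFAH2. The closest peak to STMN4, the brain stathmin RB3, was 52961 bp away inside PTK2B, with a fold of 6.27 and 12 reads. For STMN2, the stathmin of growth cones also called SCG10, it was 101653 bp away and 44 bp from HEY1, with a fold of 7.71 and 15 reads. At each of these stathmins another gene lay closer to the peak.

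The microtubule-associated proteins MAP2, MAPT and MAP1B bind along the polymer and stabilise it, and 2 of the 3 had a peak. MAP2, the classical marker of dendrites, carried the strongest of the 6 peaks. This peak, chr2:209476565-209476776, lay inside the gene body at chr2:209424047-209734112. It had a fold enrichment of 8.20 (4.90 to 13.0), 16 reads (9.15 to 26.0) and a −log10 q of 9.45. It ranked 1775 of 6183 by fold, tied with other peaks, and was higher than 69.0% of all peaks. The summit was 52619 bp into the body and 102666 bp upstream of the nearest MAP2 start in the promoter table, and no other gene overlapped it.

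MAP1B, the earliest of these proteins to appear in growing axons, had 2 peaks in its body at chr5:72107475-72209565. The first, chr5:72110518-72110668, had its summit 3179 bp downstream of the start, with a fold of 5.43 (2.94 to 9.36), 11 reads (5.49 to 19.7) and a −log10 q of 3.79. It also overlapped LOC105379028, a long non-coding RNA gene on the opposite strand, and its summit was 2060 bp upstream of a start of that gene. The second, chr5:72166783-72166928, lay 59338 bp into MAP1B, with a fold of 4.83 (2.47 to 8.72), 9 reads (4.12 to 17.1) and a −log10 q of 2.45. These were the weakest of the 6 peaks, ranking 5009 and 5624 by fold, and the second was 1 read above the lowest read number of any peak in the list. A further peak 41327 bp from MAP1B, outside the limit, had a fold of 5.51 and 12 reads.

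MAPT encodes tau, the microtubule-associated protein of axons. The closest peak to its body, chr17:45894554-46028334, was 606387 bp away inside MAP3K14, with a fold of 8.10 and 28 reads. DCX encodes doublecortin, a microtubule-binding protein of migrating neurons. The closest peak to its body, chrX:111293779-111412192, was 1162479 bp away inside TMEM164, with a fold of 8.20 and 16 reads. Both genes are longer than 100 kb, and neither had a peak in any part of the body.

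GAP43, a membrane protein of growth cones involved in axon growth, had 1 peak. The peak, chr3:115713313-115713606, lay near the far end of the gene body at chr3:115623510-115721483. Its summit was 89905 bp downstream of the start and 8068 bp before the gene end. It had a fold enrichment of 7.71 (4.53 to 12.4), 15 reads (8.40 to 24.7) and a −log10 q of 8.34, and it ranked 2152 of 6183 by fold. At 294 bp it was the widest of the 6 peaks, and no other gene overlapped it.

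**Figure D1:**
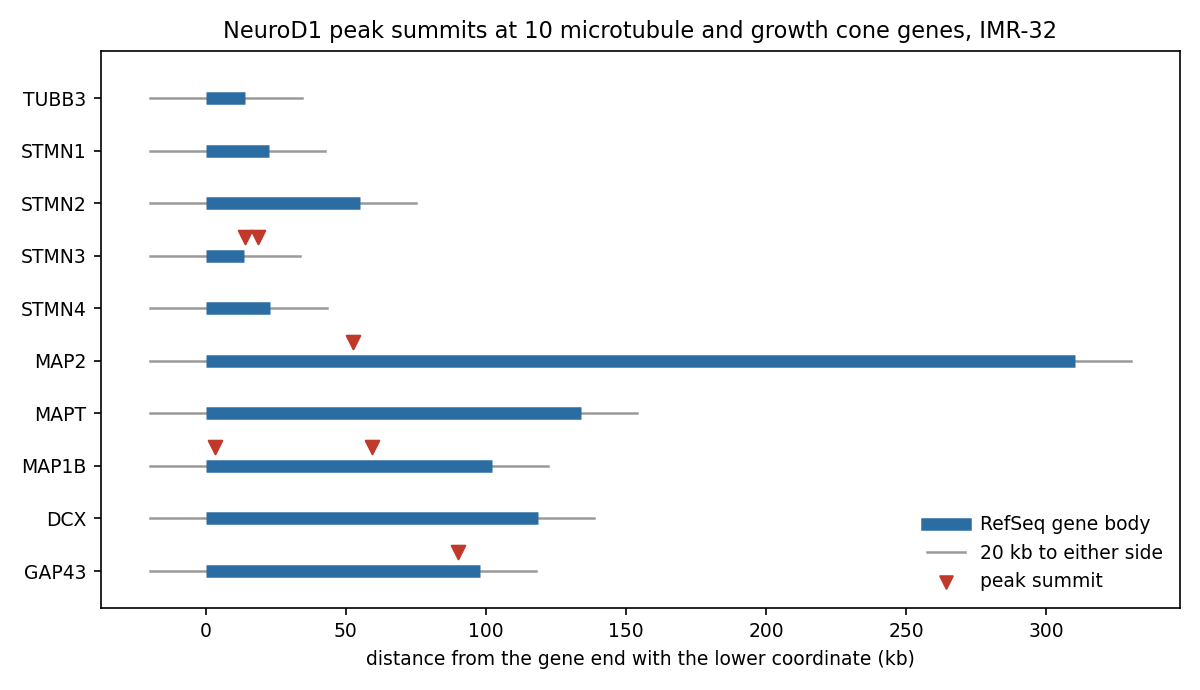
Summit position of each peak at the 10 genes, with the gene bodies drawn from their lower to their upper coordinate on a common scale in kb and 20 kb on either side. Peaks fall within MAP2, MAP1B (2) and GAP43 and beside STMN3 (2), and 6 genes hold none.

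Across the 6 peaks, the fold enrichment ran from 4.83 to 8.20 with a median of 6.51, against 6.79 for all peaks. The reads ran from 9 to 16 with a median of 12.5, against 17. The MAP2 and GAP43 peaks lay above the median fold of all peaks by more than the step of 0.482 that 1 read makes, and the first STMN3 peak lay below it by less than that step. That step is the spacing of the fold values and not a measure of counting error. All 6 intervals contained the median of 6.79, so no peak was set apart from it. The intervals also overlapped one another, so the order from MAP2 to MAP1B was not resolved at this depth.

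**Figure D2:**
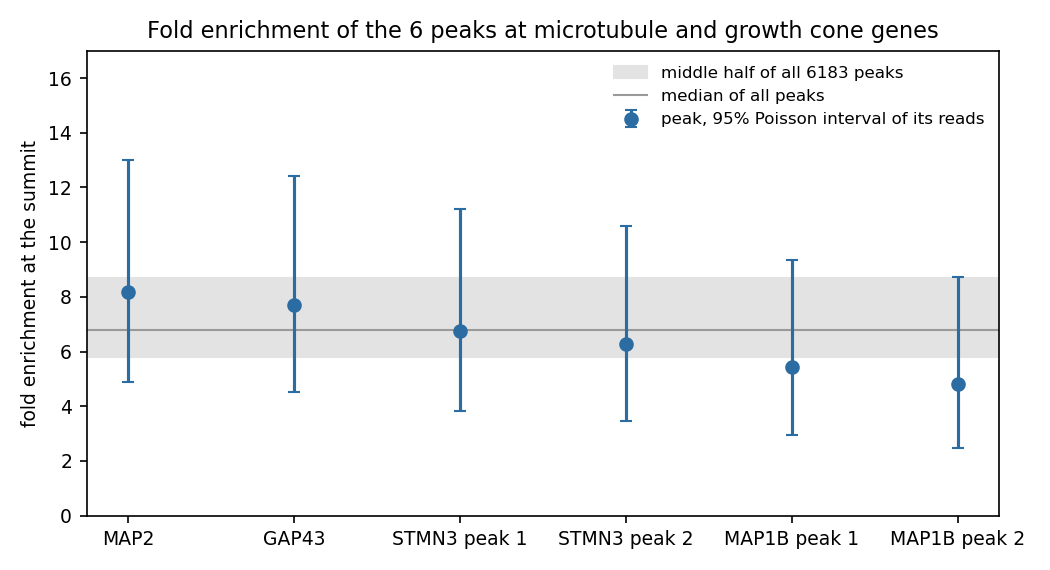
Fold enrichment of the 6 peaks at the 10 genes, with 95% Poisson intervals for the reads at each summit (background held fixed) and the median and middle range of all 6183 peaks behind them. The MAP2 peak is highest at 8.20 and the second MAP1B peak lowest at 4.83, and all intervals overlap.

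In position, 4 of the 6 peaks overlapped a gene body and 2 lay beside one. Summits within 1 kb of a listed start site made up 2 of the 6, the first STMN3 peak at 989 bp and the second at 20 bp from RTEL1. Of the 5995 peaks on chromosomes in the promoter table, 41.9% lay that close to a start. The peaks of MAP2, MAP1B and GAP43 were all farther from the start sites listed for their own gene, by 3179 bp or more.

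The count of genes with a peak was also read against gene length, since a long gene has more room for a peak. Of genes over 100 kb, 2 of 4 had a peak (MAP2 and MAP1B, not MAPT and DCX), where 37.7% of all such genes did. Of those between 20 and 100 kb, 1 of 4 had one (GAP43), where 30.9% did. Of those under 20 kb, 1 of 2 had one (STMN3), where 25.7% did. Per length searched, the 10 genes held 4.65 peaks per Mb (1.71 to 10.1), against 3.11 (3.02 to 3.20) around all protein-coding genes. The interval of the 10 genes contained the value of all genes. When the limit was widened to 50 kb, 5 of the 10 genes had a peak, where 39.9% of all did. More than 1 peak was found at STMN3 and MAP1B, as at 9.01% of protein-coding genes.

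**Figure D3:**
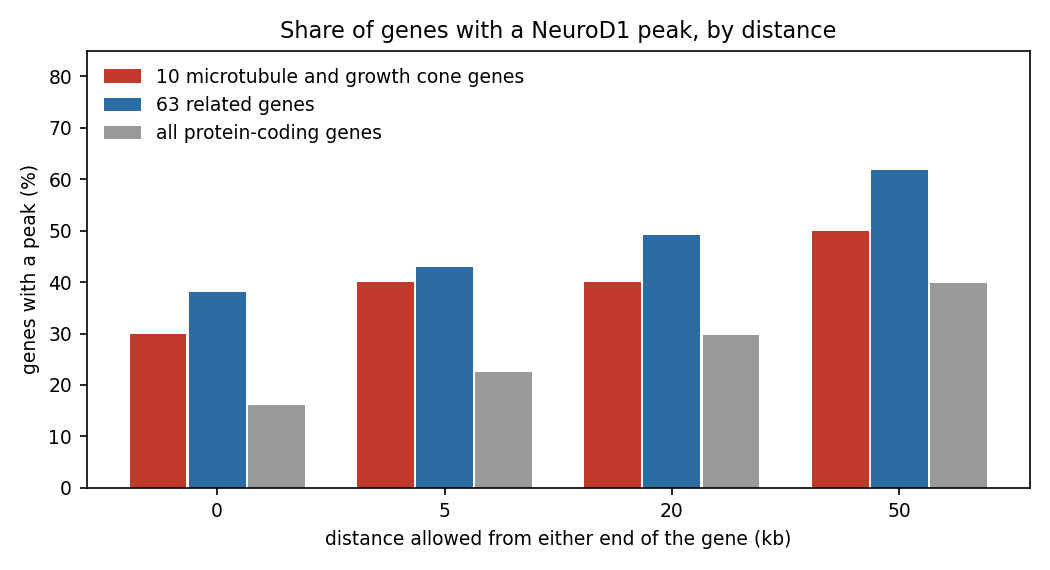
Percent of genes with a peak in the body or within 5, 20 or 50 kb, for the 10 genes, the 63 related genes and all protein-coding genes. At 20 kb the shares are 40%, 49.2% and 29.7%, and at 50 kb they are 50%, 61.9% and 39.9%. Both the 10 genes and the related genes lie above all protein-coding genes at each distance, and no difference was tested.

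The other genes of the microtubule, growth cone and intermediate filament machinery were taken as 5 lists of 63 genes in all, and 31 of them (49.2%) had a peak by the same rule, with a median fold of 7.23. In 24 genes a peak overlapped the body. Of all protein-coding genes, 29.7% had a peak by this rule and 16.0% had one in the body. Of related genes under 20 kb, 13 of 23 (56.5%) had a peak, where 25.7% of all such genes did. Between 20 and 100 kb it was 7 of 20 (35%), where 30.9% did. Over 100 kb it was 11 of 20 (55%), where 37.7% did. Whether the share of the related genes differs from that of the 10 genes or of all genes was not tested. A peak lay over a promoter window in 16 of the 54 related genes in the promoter table (29.6%), against 0 of the 7 genes with a window described above and 13.7% of all protein-coding genes of that table. These counts rest on the start sites that the promoter table lists. No start was listed at the upstream end of the STMN3 body, where a peak began 240 bp away, nor at the lower end of the MAP2 body.

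Tubulins, the building blocks of the polymer, had a peak at 6 of 11 genes (TUBA1A, TUBA1B, TUBA1C, TUBA4A, TUBB2B and TUBB4B), with a median fold of 8.35. In 4 of the 11 a peak overlapped the body. The TUBA4A peak lay 19934 bp beside the gene, with its summit 51 bp from an ATG9A start. The highest was at TUBB4B, with a fold of 11.1 and 22 reads, though that peak lay 17625 bp beside the gene and 3 bp from RNF208. TUBB4B also had a peak over its own promoter window, 228 bp upstream of its start, with a fold of 7.52 and 22 reads. The second highest tubulin peak was 18218 bp beside TUBA1C, with a fold of 10.4. It was the same peak as the one 1558 bp beside PRPH, and it overlapped TROAP-AS1. TUBA1A, the main alpha-tubulin of developing neurons, had a peak 52 bp upstream of a start with a fold of 9.75 and 22 reads. TUBB2B, a beta-tubulin of the developing brain, had one 111 bp upstream with a fold of 9.33 and 21 reads. TUBB3 had no peak. Tubulin genes have close copies, and how reads that fit several copies were counted is not given in the sources used here.

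Other microtubule-associated and plus-end proteins had a peak at 10 of 19 genes (CKAP5, CLASP1, DCLK1, MAP1A, MAP1S, MAP4, MAP6, MAP7, MAP9 and MAPRE2), with a median fold of 6.36. The highest, at MAP1S, had a fold of 12.5 but lay 12920 bp beside the gene and overlapped FCHO1. CKAP5, a microtubule polymerase, had a peak 10 bp upstream of its start with a fold of 9.64 and 19 reads. That peak lay 3 bp from LRP4-AS1. MAP1A, the adult relative of MAP1B, was among the genes with a peak over a promoter window.

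Tubulin modifying and severing proteins had a peak at 5 of 12 genes (among them AGTPBP1, SPAST, TTLL7 and VASH2), with a median fold of 6.27, and at all 5 a peak overlapped the body. The highest was at VASH2, a tubulin tyrosine carboxypeptidase, with a fold of 13.1 and 30 reads. TTLL7, a tubulin polyglutamylase, had a peak 8 bp upstream of its start with a fold of 8.55 and 23 reads. That peak also overlapped LOC124904205 and a promoter window of that gene. The TTLL7 and TUBA1A windows are shown as examples of related promoters under a peak. In TTLL7 an E-box of the form CAGCTG was centred 5 bp from the summit, and TUBA1A had no E-box in its window.
TTLL7 (chr1:83999083-83999382, minus strand): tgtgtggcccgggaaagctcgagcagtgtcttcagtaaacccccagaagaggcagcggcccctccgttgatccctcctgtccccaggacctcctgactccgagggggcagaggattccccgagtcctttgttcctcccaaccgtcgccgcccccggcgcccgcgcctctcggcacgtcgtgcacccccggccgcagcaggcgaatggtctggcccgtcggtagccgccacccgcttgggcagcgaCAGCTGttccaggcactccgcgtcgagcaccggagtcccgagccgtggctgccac
TUBA1A (chr12:49189031-49189330, minus strand): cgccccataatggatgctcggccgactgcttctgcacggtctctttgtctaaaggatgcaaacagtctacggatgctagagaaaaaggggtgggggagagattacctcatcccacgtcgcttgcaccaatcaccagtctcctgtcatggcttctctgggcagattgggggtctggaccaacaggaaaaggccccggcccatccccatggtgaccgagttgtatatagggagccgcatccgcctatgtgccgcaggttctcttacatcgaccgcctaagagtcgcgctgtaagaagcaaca

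Growth cone and neurite proteins had a peak at 6 of 15 genes (DBN1, DPYSL5, ENAH, FSCN1, MARCKS and NCAM1), with a median fold of 8.83. NCAM1, a neural cell adhesion molecule, had 4 peaks, the highest with a fold of 13.7 and 41 reads at chr11:112961090-112961435, a peak that also overlapped the antisense gene NCAM1-AS2. MARCKS, a membrane protein that, like GAP43, is a substrate of protein kinase C, had a peak 2019 bp beside the gene with a fold of 10.8 and 27 reads. Set beside them, the GAP43 peak stood at 7.71 with 15 reads, and these differences were not tested.

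Neuronal intermediate filaments had a peak at 4 of 6 genes (INA, NEFH, NES and PRPH), with folds from 5.72 to 10.4. PRPH, which encodes peripherin, had the highest fold at 10.4, from the peak it shared with TUBA1C, and INA, which encodes alpha-internexin, followed at 7.71. NEFL and NEFM, the light and medium neurofilament genes, had none.

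**Figure D4:**
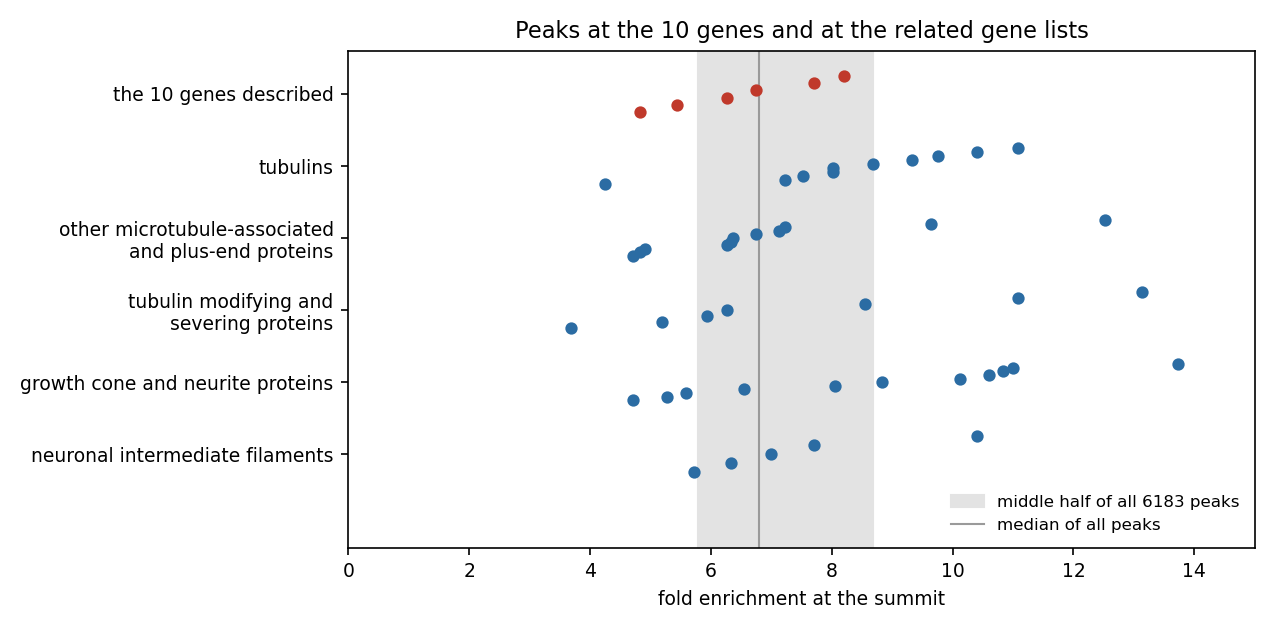
Fold enrichment at the summit of each peak at the 10 genes (red) and at the 5 related lists (blue), with the median and middle range of all 6183 peaks. The 6 peaks of the 10 genes end at 8.20, and each related list holds a peak at 10.4 or higher, out of 43 peaks over all lists. The highest peaks of the tubulin, microtubule-associated and intermediate filament lists lay beside their gene and at or over another gene.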

How the data were processed

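NeuroD1 ChIP-seq was analysed from the peak list of 1 library of IMR-32 cells. The submitters' processing notes name BWA 0.7.17, MACS2 2.2.7 and hg38, while the peak names in the list read MACS3. Which control and q threshold were used is not given in the sources used here. The highest q was 0.0414. The authors deposited, for each summit, a fold enrichment, which is the ratio (pileup plus 1) over (local background plus 1). They also deposited the −log10 of a Poisson p-value and of its q-value. The deposited score is a multiple of the −log10 q and was not used, nor was the last column.

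Reads and background at each summit were solved from the fold and the −log10 p with the Poisson formula, with a weight per read of 0.98008 and a common background of 1.03532, both derived from the list. The largest misfit of the −log10 p was 0.00109. The solution was tested on simulated data and can miss where a pileup is a whole number. Intervals are exact Poisson intervals for reads and peak density, with the background held fixed for folds, at 95%. They cover counting error only.

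Peaks were joined to the RefSeq GRCh38.p14 gene table at 20 kb and to its promoter table, with Python 3.11.15, pandas 2.3.3, numpy 2.4.6 and scipy 1.17.1 (figures with matplotlib 3.10.9). No genome sequence was used, so exons, introns and the sequence under each summit were not analysed here. All 10 genes were named, with the related genes that had a peak, values for the 2 highest by fold in each list, and the genes lying closest to a peak described. The result for 1 of the related genes is not reported here. The values of TUBA1A, TUBB2B, TTLL7 and the promoter peak of TUBB4B were added after they were seen. The genes and lists were chosen with earlier results of these data known. Alternatives were the distance, a minimum −log10 q or fold, assignment by summit, ranking by q, all RefSeq genes and a weight of 1.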

Additional observations from a re-analysis of the deposited data

How the results depend on the processing

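The number of the 10 genes with a peak was 4 at 20 kb, 3 in the gene body alone (without STMN3), 4 within 5 kb and 5 within 50 kb (with STMN1). It was 3 with a −log10 q of at least 5 (without MAP1B), 4 with a fold of at least 5 and 4 when assigned by summit. The share of protein-coding genes with a peak, 29.7% at 20 kb, was 29.6% when assigned by summit, within its counting interval, and moved by more than that interval under the others. It was 16.0% in the body alone, 22.5% within 5 kb, 39.9% within 50 kb, 24.4% with a −log10 q of at least 5 and 27.6% with a fold of at least 5. Over all RefSeq genes it was 17.6%. The related genes with a peak numbered 24 to 39 of 63 under the same alternatives. Ranked by q, the MAP2 peak was 2279 of 6183 rather than 1775. With a weight of 1 per read, the median reads of the 6 peaks were 8 rather than 12.5, with a misfit of the −log10 p of up to 0.469. No paired analysis was possible because only 1 ChIP library was used. With 9 to 16 reads at a summit, the order of the 6 peaks was not resolved. At the genes without a peak none was called in this list, which does not show that binding was absent.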

Other observations

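The E-box content of promoter windows under a NeuroD1 peak was set beside that of all promoter windows, with no test. CANNTG occurred in 56.7% of the 2895 windows under a peak and in 68.7% of all 34943. CAGATG occurred in 8.70% and 14.7%, and CAGCTG in 18.5% and 17.9%. The windows under a peak were also richer in G and C, at 67.6% ± 7.92 (SD over windows), against 57.5% ± 13.2 for all windows, and the part of this in the E-box shares was not tested. Windows of 1 gene can overlap, so they are not independent. A window counted as under a peak when any part of it overlapped one, so an E-box in it could lie outside the peak. Among the related microtubule and growth cone genes, 9 of the 18 windows under a peak held CANNTG, 4 held CAGCTG and 1 held CAGATG. The CAGATG was in MAPRE2, the gene of an end-binding protein, centred 50 bp from the summit. Every E-box in the VASH2, MAP9 and AGTPBP1 windows, and the CAGCTG of MAPRE2, lay outside the peak.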
